A study of Mus musculus with 24 samples.

Results

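The genes described here are 38 interferon-stimulated genes outside the large interferon gene families, of 35492 gene symbols measured in polarizing mouse CD4 T cells. The members were given as a list of symbols, and all 38 were found in every library. They fall into 7 genes acting on nucleic acids and their copying, 6 of nuclear bodies and chromatin, 6 regulators of signalling or ubiquitin ligases, 6 linked to cell death, 3 Ifitm genes, 4 Ly6 genes, 2 of the galectin family and 4 others. Of these, 8 (Rnf213, Ifi27l2a, Ifi44, Xaf1, Rtp4, Ly6c1, Lgals3bp and Ly6a) also stand in a gene table that the study drew from these libraries, so their direction between treatments is not independent evidence.

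Naive CD4 T cells, sorted from C57BL/6 mice, were activated on coated anti-CD3 and anti-CD28 and transfected by Lipofectamine over 6 h. They received either 2'3'-cGAMP, which binds and activates STING, or a control dinucleotide. Polarization then ran to 16 h or 48 h, with IL-12 and anti-IL-4 for TH1 cells, or TGF-β, IL-4 and anti-IFN-γ for TH9 cells. The 24 RNA-seq libraries fall under 8 labels (TH1 or TH9, 16h or 48h, control or cGAMP), each with replicates 1 to 3, and the strain, the activation and the transfection were common to all of them. The replicates were biological, from 3 independent experiments by the study's description, and the labels do not tie a replicate number to an experiment.

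Genes that define the subsets go against the labels, which limits every comparison between labels below. Tbx21, the master regulator of TH1 cells, exceeded Il9, the cytokine of TH9 cells, in only 8 of the 12 TH1 libraries, and did so in 4 of the 12 TH9 libraries. Groups rest on the deposited labels alone, and no library was regrouped by its values or its listed position. The treatment, the time and the replicate number come from the same labels and are in doubt with them. A comparison without calls thus shows only that the deposited labels did not separate the libraries, not that cGAMP had no effect. Of 7 CD4 T-cell markers, 7 reached 1 TPM (an abundance corrected for transcript length, with equal totals in all libraries) throughout. The 2 NK-cell markers stayed under 1 TPM in all libraries, and the summed markers of B cells reached at most 7.56 TPM, of myeloid cells 6.81 TPM, of dendritic cells 4.49 TPM and of CD8 T cells 7.83 TPM. The number of symbols at 1 TPM or more per library ran from 8923 to 14068, and the read depth is unknown because TPM hold no counts. Gm10800, a predicted gene, took 0.0933% to 39.9% of the TPM of a library and Lars2 took 0.333% to 33.8%, and a large share lowers the other genes of that library in proportion.

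STING, once bound by cGAMP, activates the kinase TBK1 and the transcription factor IRF3, which turn on type I interferon genes. Secreted interferon binds the receptor made of IFNAR1 and IFNAR2, and the kinases JAK1 and TYK2 then activate transcription factors that bind interferon-stimulated response elements built from repeated GAAA. Interferon gamma, the TH1 cytokine, acts at gamma-activated sites, and many genes respond to both. Interferon-stimulated genes edit or degrade foreign RNA, block virus entry, mark proteins with ubiquitin or prime cells to die, and in T cells several of them (Ly6a, Ly6c1, Ly6c2) also mark activation.

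The promoters were searched for the letters of such an element, on both strands, from 250 bases before to 50 after each RefSeq start (build GRCm38.p6). Of the members, 32 had an entry, and Ifi27, Ifi27l2a, Ly6a, Ly6e, Rtp4 and Tor3a did not. Copies of GAAA 2 bases apart stood in 8 of 32 members (25%) and in 3.99% of the 27025 symbols with a promoter. After the sequences had been seen, spacings of 1 and 3 bases were added, and a pair of copies 1 to 3 bases apart then stood in 18 of 32 members (56.2%) and in 9.91% of all symbols. The core of a gamma-activated site, TTC and GAA 3 bases apart, stood in 4 of 32 members (12.5%) and in 9.55% of all symbols. A match is a description of letters and not evidence of binding. Windows of 30 bases around a match are printed for the members on which the results below turn, chosen after their values were seen, 5′ to 3′ on the strand of the gene, with the paired copies of GAAA, or of TTTC where the pair lies on the other strand, in capitals.
Xaf1, chr11:72301629-72301658, plus strand: tgtgtgcaaaGAAAcGAAActccacagaag
Ifi44, chr3:151749945-151749974, minus strand: tatacagagTTTCagtTTTCgTTTCccgag
Lgals3bp, chr11:118401956-118401985, minus strand: gtgttttctGAAAatcGAAActaggtgagg
Helz2, chr2:181241991-181242020, minus strand: cccaggggcaGAAAcGAAActgatcgctac
Phf11a, chr14:59297532-59297561, minus strand: cacatttagaGAAAaaGAAActagaaccta
Phf11b, chr14:59341361-59341390, minus strand: cacatttagaGAAAaaGAAActaGAAActa
Phf11d, chr14:59365475-59365504, minus strand: cacatttcggGAAAcGAAActaggagctag
Samd9l, chr6:3399522-3399551, minus strand: gtatcagaatcGAAActgGAAActgaagca
Trim21, chr7:102565450-102565479, minus strand: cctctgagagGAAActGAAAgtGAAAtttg
Pnpt1, chr11:29130668-29130697, plus strand: aggctccacgGAAAcGAAActgcgtccgac
Ifitm3, chr7:141010723-141010752, minus strand: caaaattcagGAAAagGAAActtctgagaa
Ifitm2, chr7:140955988-140956017, minus strand: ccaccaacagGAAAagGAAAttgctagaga
Of the 18 members with such a pair, 12 were called in the relation with interferon genes below and 6 were not (Adar, Pnpt1, Trim21, Shisa5, Ifitm2 and Lgals9). Of all 38 members, 27 were called, but these 38 include the 6 without a promoter entry.

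The members spanned a wide range of levels. Ifi27l2a, an interferon-induced mitochondrial protein, had the highest level, from 36.1 to 1365 TPM with a median of 328 over the 24 libraries. Shisa5, an endoplasmic reticulum protein linked to apoptosis, followed with 42.9 to 446 TPM (median 161). Ly6a, the surface antigen Sca-1, ran from 0.521 to 838 TPM (median 119), the widest spread of any member without a value of 0. At the low end, Ifitm1 was listed at 0 in 12 libraries and did not exceed 2.45 TPM. Of the 38 members, 20 reached 1 TPM in every library, 23 had a median of 10 TPM or more, and 9 were listed at 0 in at least 1 library. The SD between libraries of 1 label, on the scale of log2(TPM + 1), had a median of 1.09 over the members and of 0.60 over all 15720 genes with at least 1 TPM in 3 or more libraries, and 32 members lay above the latter. All 38 members passed that filter.

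Libraries labelled cGAMP were compared with those labelled control within each subset and time, to ask whether the members differed between the deposited labels. With the labels in doubt, this comparison cannot tell whether the members responded to STING activation. No member was called in the 4 comparisons, in their mean, or in the 4 differences between subsets and between times (limma on log2(TPM + 1), adjusted p under 0.05 over all genes). Most members nevertheless lay above 0. At TH1 16h, 30 of 38 did, as did 47.4% of all genes, with a median log2 fold change of 0.46 beside -0.03 over all genes, while 0.00636% of all genes were called. At TH9 16h, 24 did beside 29.4% of all genes (median 0.20 beside -0.24), and at TH1 48h 22 did beside 38.8% (0.11 beside -0.12). At TH9 48h 37 did, but so did 85.4% of all genes (0.87 beside 0.50), and in each of these 3 comparisons 0% of all genes were called. Over the mean of the 4 comparisons 35 lay above 0 beside 53.4% of all genes, with a median of 0.36 beside 0.01 and again 0% called. An unadjusted p under 0.05 was reached by 1, 3, 0 and 1 members in the order given, where 8.16%, 8.37%, 4.28% and 9.9% of all genes reached it, and by 1 for the mean, where 2.05% did. These counts of members lie near the background. Dividing each library by its upper quartile moved the median of all genes at TH9 48h from 0.50 to -0.02 and the members above 0 there from 37 to 27.

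**Figure D1:**
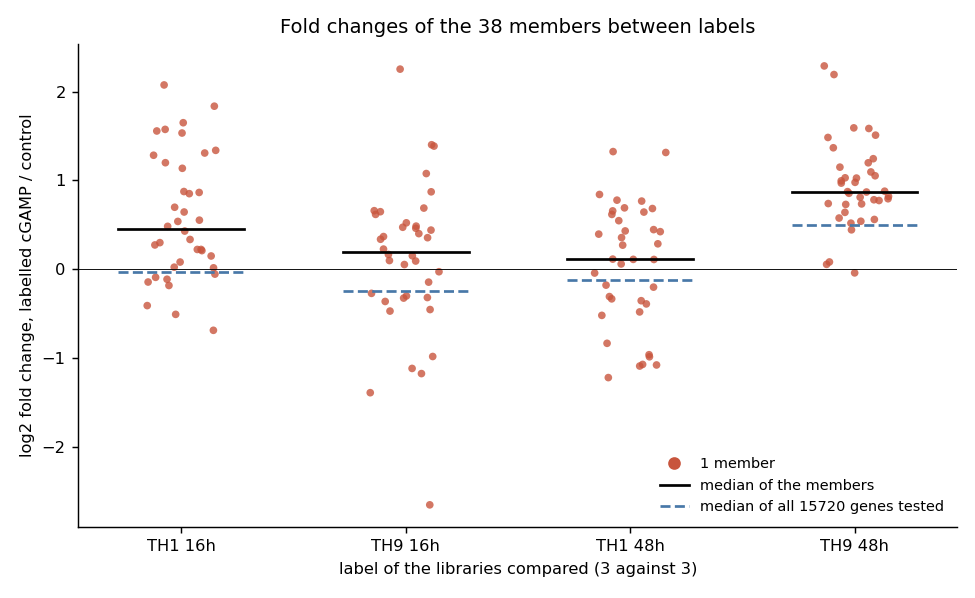
Log2 fold change of each of the 38 members (points) between libraries labelled cGAMP and control, in the 4 subset and time labels (horizontal axis), with the median of the members (solid line) and of all 15720 genes tested (dashed line). The solid line lies above the dashed line in all 4, at 0.46, 0.20, 0.11 and 0.87, and no member passed the test.

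In 3 of the 4 comparisons the sign of the median turned when single libraries were left out. At TH1 16h the median fell to -0.11 without TH1 16h control replicate 3 and to -0.03 without TH1 16h cGAMP replicate 3. At TH9 16h it was -0.22 without TH9 16h control replicate 1 and -0.20 without TH9 16h cGAMP replicate 3, and at TH1 48h it was -0.51 without TH1 48h control replicate 3. At TH9 48h it stayed between 0.60 and 1.16 whichever library was left out, but it was 0.21 under upper-quartile scaling and 0.14 with the 20 most abundant symbols left out.

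Tdrd7, a tudor-domain protein of RNA granules, had the smallest p at TH1 16h. It held 0.348, 2.73 and 0.208 TPM in the libraries labelled control and 2.25, 2.39 and 7.40 TPM in those labelled cGAMP. The control library of replicate 2 lay above 2 of the cGAMP libraries, so the groups overlapped. The log2 fold change was 1.31 ± 0.48 (SE, 3 libraries per label, limma adjusted p = 0.596). At TH1 48h, the same gene held 2.61, 2.82 and 0.656 TPM in control and 0.919, 0 and 0.537 TPM in cGAMP libraries, which overlapped, a log2 fold change of -0.98 ± 0.48 (limma adjusted p = 0.953). Rnf213, a giant ubiquitin ligase, had the next smallest p at TH1 48h, with 5.18, 21.3 and 2.12 TPM in control and 21.0, 8.81 and 30.4 TPM in cGAMP libraries. It was followed by Ifitm2, with 15.3, 15.6 and 12.6 TPM against 5.49, 15.7 and 2.61 TPM. Both overlapped, with log2 fold changes of 1.33 ± 0.91 and -1.08 ± 0.83 (limma adjusted p = 0.953 for each). At TH1 16h, Epsti1, an interferon-induced protein first found in epithelial-stromal contact, held 11.2, 22.2 and 3.35 TPM in control and 9.61, 56.0 and 61.7 TPM in cGAMP libraries. The first cGAMP library lay among the controls. Samd9l, a cytosolic antiviral factor, held 11.9, 23.0 and 4.19 TPM against 16.7, 40.6 and 52.1 TPM, also overlapping. Their log2 fold changes were 1.65 ± 0.88 and 1.53 ± 0.85 (limma adjusted p = 0.644 and 0.664).

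At TH9 16h, the smallest p-values belonged to members that were lower in libraries labelled cGAMP. Both labels were mixed in a subset marker, with Tbx21 at 0.104, 1.42 and 38.8 TPM in control and 27.6, 0.188 and 0.447 TPM in cGAMP libraries. Subset, treatment and time, whose label is in doubt as well, therefore cannot be told apart in the differences that follow. Ifitm2, a membrane protein that hinders fusion of viruses with the cell, held 22.5, 35.1 and 23.8 TPM in control and 3.05, 2.82 and 4.49 TPM in cGAMP libraries. All controls lay above all cGAMP libraries, with a log2 fold change of -2.65 ± 0.83 (limma adjusted p = 0.362). Its paralogue Ifitm1 held 2.45, 0.281 and 1.60 TPM in control and was listed at 0 in all 3 cGAMP libraries. It reached 1 TPM in only 3 libraries, 2 of them these controls, and so passed the filter through the group in which it was high, for which reason no fold change is given for it. Tor3a, an ATPase of the endoplasmic reticulum, held 8.59, 9.57 and 3.65 TPM in control and 2.38, 2.77 and 2.64 TPM in cGAMP libraries (log2 fold change -1.12 ± 0.43, limma adjusted p = 0.460). Ifitm1 aside, which passed the filter in that way, Ifitm2 and Tor3a were the only members at TH9 16h whose groups did not overlap. Both had cGAMP below control, as had 13.2% of all genes. None lay wholly above, where 1.62% of all genes did.

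At TH9 48h, the values of Ifitm2 lay the other way, with 2.48, 0.7 and 14.3 TPM in control and 11.2, 40.1 and 19.9 TPM in cGAMP libraries. Here the groups overlapped, and the log2 fold change was 2.29 ± 0.83 (limma adjusted p = 0.487). Trim25, the ubiquitin ligase that activates the RNA sensor RIG-I, held 6.28, 4.92 and 12.3 TPM in control and 17.8, 11.3 and 18.6 TPM in cGAMP libraries. Mlkl, which carries out necroptosis by breaching the plasma membrane, held 0.0909, 1.08 and 4.31 TPM against 9.80, 2.30 and 6.79 TPM. In both the lowest cGAMP library lay below the highest control, and the log2 fold changes were 1.00 ± 0.50 and 1.51 ± 0.78 (limma adjusted p = 0.487 for each). Adar, Tdrd7, Daxx, Ifi35, Trim21, Ly6e and Lgals9, 7 of 38 members, did not overlap at TH9 48h, all with cGAMP above control, as were 13.2% of all genes, and no member lay wholly below, as 0.191% of all genes did. At TH1 16h no member was free of overlap in either direction, against 5.85% of all genes above and 6.97% below. The same held at TH1 48h, against 2.2% above and 6.33% below.

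For the mean of the 4 comparisons, the members with the smallest p were Nmi, Helz2 and Rnf213. Nmi, a binding partner of Ifi35, spanned 3.39 to 57.3 TPM (median 16.4) across the 12 control libraries and 8.49 to 102 TPM (median 26.4) across the 12 cGAMP libraries. Helz2, a helicase that co-activates nuclear receptors, ranged from 1.48 to 39.6 TPM (median 7.36) against 5.35 to 26.8 TPM (median 11.0). Rnf213 ranged from 2.12 to 71.3 TPM (median 13.6) against 5.09 to 92.5 TPM (median 22.3). Their log2 fold changes were 0.86 ± 0.41, 0.57 ± 0.30 and 0.83 ± 0.45, and the ranges overlapped over most of their width (limma adjusted p = 1 for each). The sizes of the fold changes given above depend on the pseudocount. With 10 in place of 1, all of them moved closer to 0, to 0.32 and -0.19 for Tdrd7 at TH1 16h and 48h, 0.45 for Mlkl and 0.25 for Helz2, and with 0.1 they were 2.27, -2.18, 2.46 and 0.67. Trim25 at TH9 48h fell from 1.00 to 0.29 under upper-quartile scaling and to 0.19 with the 20 most abundant symbols left out. The difference of the effect between subsets at 16h and at 48h and between times in TH1 and in TH9 gave 3, 3, 3 and 4 members at an unadjusted p under 0.05, where 10.6%, 12.1%, 12% and 17.3% of all genes reached it, and none at the adjusted threshold, where 0.00636%, 0%, 0% and 0% of all genes were called.

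An F test over all 8 labels called Adar, Pnpt1, Znfx1, Sp100, Daxx, Trim25, Lgals9 and Tor3a, 8 of 38 members, while it called 41.2% of all genes. Under upper-quartile scaling it called none of the members, and none either once the 20 most abundant symbols were left out. The share of all genes called under these scalings was not taken.

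Because the labels were in doubt, the members were next related to interferon signalling without any label. The measure was the mean log2(TPM + 1) of 20 interferon-stimulated genes outside the members, among them Isg15, Irf7, Ifit1, Oas1a, Mx1, Rsad2 and Usp18. It ran from 1.26 to 5.34 over the 24 libraries with no break into clusters. The genes named for it also stand in the study's own table, and members and measure are both interferon-stimulated genes. A high r is therefore not independent evidence of a response to cGAMP. The libraries differ in treatment, subset and time and share replicate numbers 1 to 3, so they are not repeats of one condition. Pearson's r was above 0 at an adjusted p under 0.05 (100000 permutations, two-sided, adjusted over all 15720 genes) for 27 of 38 members, or 71.1%, while 0.852% of all genes were called. No member was called with r below 0, 11 were not called, and Spearman's rho called 23. The share of all genes called was taken for Pearson's r over all 24 libraries only, not for rho or the alternatives below. The median r was 0.714 for the members and 0.137 for all genes, and it was 0.671 without the 2 libraries farthest from the median. Within the 8 libraries of each replicate number the median r was 0.716, 0.724 and 0.766, and 27 members exceeded 0.5 in all 3. Replicate numbers belong to the labels in doubt and are not tied to an experiment, so these values are no check across experiments. Of the 30 members outside the study's own table, 20 were called, with a median r of 0.696. When each library was left out in turn, 18 of the 27 kept their call throughout, and 9 lost it. Epsti1 lost it without any 1 of 15 libraries, Casp4 of 13, Mlkl and Tdrd7 of 10 each, Znfx1 and Ly6e of 6 each, Daxx and Phf11d of 4 each and Trafd1 of 1. The number called then ran from 18 (without TH1 16h control replicate 2) to 29. It fell to 12 when deviations from the label means were used, an alternative chosen after seeing the data, although the median r was then 0.751 beside -0.112 for all genes. The mean level of the 20 genes had an r of -0.259 with Gm10800 and of 0.193 with Lars2. In bulk RNA, more cells that respond and a higher level per cell cannot be told apart.

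**Figure D2:**
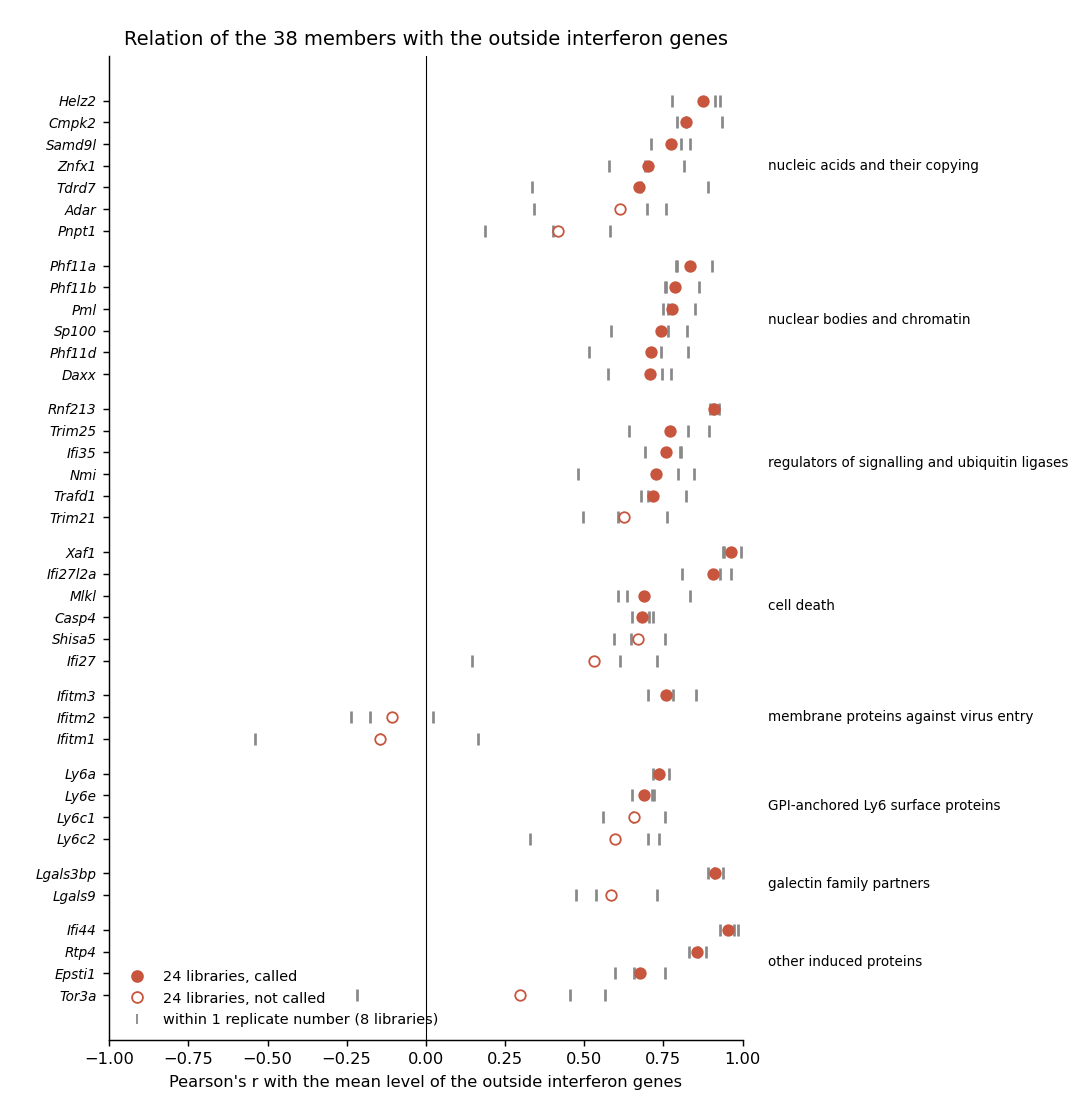
Pearson's r of each of the 38 members (rows, grouped by role) with the mean log2(TPM + 1) of the 20 outside interferon genes, over 24 libraries (circles, filled where called at adjusted p under 0.05) and within the 8 libraries of each replicate number (ticks). The 27 filled circles lie between 0.674 and 0.962, and only Ifitm1 and Ifitm2 lie below 0.

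The members nearest to the outside interferon genes came from several roles. Xaf1, a partner and antagonist of the apoptosis inhibitor XIAP, had r = 0.962 (rho = 0.967, permutation adjusted p = 0.00225), the third highest of all genes tested. It spanned 0.389 to 45.0 TPM (median 5.91) across the 12 control libraries and 0.364 to 72.7 TPM (median 22.2) across the 12 cGAMP libraries. High and low libraries stood inside single labels: TH1 16h control held 3.79, 45.0 and 1.43 TPM, and TH9 16h cGAMP held 68.3, 2.71 and 72.7 TPM. Ifi44, an interferon-induced cytoplasmic protein, had r = 0.953 and rho = 0.946. It ranged from 0.150 to 18.7 TPM (median 0.664) in control and from 0 to 27.5 TPM (median 5.20) in cGAMP libraries, and in TH9 16h cGAMP it held 27.5, 0.111 and 20.4 TPM, the same library being low as for Xaf1. Each log2 unit of the outside genes went with 1.46 log2 units of Xaf1 and 1.24 of Ifi44.

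**Figure D3:**
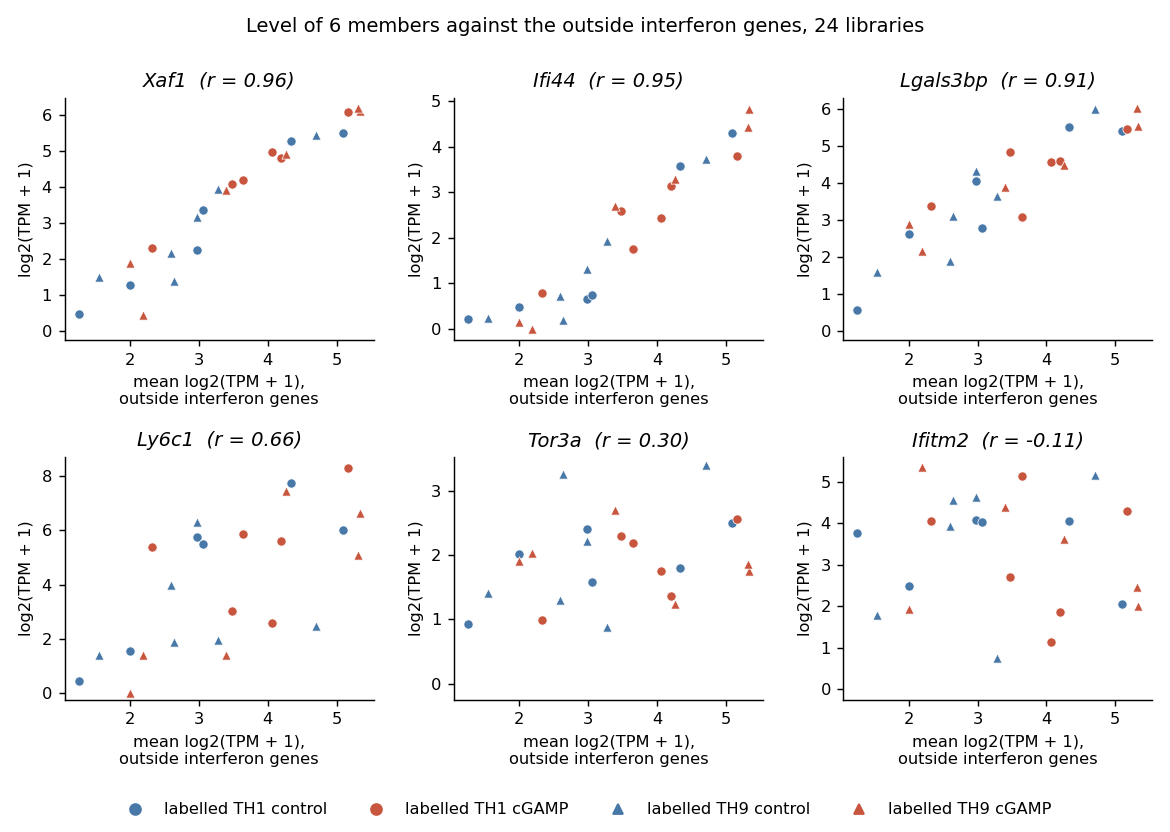
Level of 6 members, log2(TPM + 1), against the mean log2(TPM + 1) of the 20 outside interferon genes in the 24 libraries, with shape for the subset label and colour for the treatment label. Xaf1, Ifi44 and Lgals3bp rise with it (r = 0.962, 0.953 and 0.914) with both treatment labels spread along the range, while Tor3a (0.298) and Ifitm2 (-0.106) do not.

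Lgals3bp, a secreted glycoprotein bound by galectins, had r = 0.914 (rho = 0.908) and ranged from 0.477 to 62.9 TPM (median 9.49) in control and from 3.46 to 64.0 TPM (median 21.98) in cGAMP libraries. Rnf213 followed with r = 0.911 (rho = 0.890), and Ifi27l2a with 0.906 (rho = 0.924). Ifi27l2a ranged from 36.1 to 1141 TPM (median 194) in control and from 76.4 to 1365 TPM (median 400) in cGAMP libraries. Helz2 had r = 0.876 (rho = 0.871). Rtp4, a chaperone of surface receptors, had r = 0.856 (rho = 0.850) and ranged from 0 to 25.4 TPM (median 1.25) against 0.175 to 43.0 TPM (median 3.03). Phf11a had r = 0.833 (rho = 0.840) and ranged from 0 to 7.04 TPM (median 1.75) against 0 to 9.91 TPM (median 2.66). All 8 of these had the smallest p that the permutations can give, 1e-05, as had 12 members in all, and an adjusted p of 0.00225. In each the 2 treatment labels overlapped over most of the range. Of the 20 genes with the highest r, 5 were members, Xaf1, Ifi44, Lgals3bp, Rnf213 and Ifi27l2a, each of which is in the study's table.

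Among the genes acting on nucleic acids, 5 of 7 were called. After Helz2 came Cmpk2, a mitochondrial nucleotide kinase, with r = 0.821 at a median of only 0.673 TPM, then Samd9l (0.773), Znfx1, a helicase that senses viral RNA in mitochondria (0.703), and Tdrd7 (0.674). Adar, which edits adenosine to inosine in double-stranded RNA, had r = 0.613 and was not called (permutation adjusted p = 0.143). Pnpt1, an RNA exonuclease of mitochondria, had r = 0.417 (rho = 0.368, permutation adjusted p = 0.87) at a level of 7.74 to 96.7 TPM.

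All 6 genes of nuclear bodies and chromatin were called. Pml, which builds the bodies that carry its name, had r = 0.778, its resident Sp100 0.743 and the histone chaperone Daxx 0.708. The 3 Phf11 paralogues, PHD-finger genes that lie close together on chromosome 14 between positions 59276913 and 59365470 (GRCm38), had r = 0.833, 0.786 and 0.712 for Phf11a, Phf11b and Phf11d. Phf11b was the most abundant, from 0.785 to 76.7 TPM with a median of 21.2, against medians of 1.91 for Phf11a and 2.77 for Phf11d. Phf11a and Phf11b correlated with each other at 0.903 over the 24 libraries, and the windows printed above share the stretch that holds the GAAA pair. Reads from such close copies may be split by the authors' assignment, so their separate levels are uncertain.

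Of the regulators of signalling and ubiquitin ligases, 5 of 6 were called. After Rnf213 they were Trim25 (r = 0.771), Ifi35 (0.758), Nmi (0.728) and Trafd1, a brake on innate signalling (0.716). Trim21, a cytosolic antibody receptor and ubiquitin ligase whose window above holds 3 copies of GAAA, had r = 0.627 and was not called (permutation adjusted p = 0.136).

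Of the genes linked to cell death, 4 of 6 were called. Mlkl had r = 0.689 and Casp4, the mouse caspase-11 that senses bacterial lipopolysaccharide, had 0.682. Shisa5 had 0.670, the highest r among members that were not called, just below Tdrd7, the lowest that was, and it was called when any 1 of 13 libraries was left out. Ifi27 lies close to Ifi27l2a on chromosome 12 (103434211 to 103440239 against 103442167 to 103443680), and they ranged from 2.65 to 122 TPM and from 36.1 to 1365 TPM. Their r with the interferon genes was 0.531 (permutation adjusted p = 0.411) and 0.906, and that between them was 0.747.

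The 3 Ifitm genes, which lie within chromosome 7 from 140954837 to 141010770, had unlike values of r. Ifitm3 had r = 0.757 (permutation adjusted p = 0.00561) and ranged from 0 to 34.2 TPM (median 2.97) in control and from 1.01 to 47.4 TPM (median 4.65) in cGAMP libraries. Ifitm2 had r = -0.106 (rho = -0.050, permutation adjusted p = 0.913), and ranged from 0.7 to 35.1 TPM (median 14.8) against 1.20 to 40.1 TPM (median 8.35). Ifitm1 had r = -0.146 (rho = -0.187, permutation adjusted p = 0.888) at levels near 0. Between the paralogues r was 0.306 for Ifitm2 with Ifitm3, 0.311 for Ifitm1 with Ifitm2 and -0.085 for Ifitm1 with Ifitm3. The window of Ifitm2 above holds the same 10 letters, from the first copy to the second, as that of Ifitm3. Ifitm3 had a further pair of GAAA 2 bases apart, at chr7:141010706-141010735 and not printed above, and Ifitm2 had no other pair.

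Lgals9 and Tor3a were also not called. Lgals9, galectin-9, a ligand of the inhibitory receptor Tim-3, had r = 0.583 (permutation adjusted p = 0.211). It had the narrowest ratio of highest to lowest library of all members without a 0, from 14.7 to 89.3 TPM. Under upper-quartile scaling its r was 0.722 (permutation adjusted p = 0.00629), and with the 20 most abundant symbols left out it was 0.754 (permutation adjusted p = 0.00354). Both scalings also called Adar, Trim21 and Shisa5. Tor3a had r = 0.298 (rho = 0.260, permutation adjusted p = 0.87), and within replicate numbers its r was -0.218, 0.567 and 0.455.

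The pathway upstream of these genes was measured beside them. Of 14 genes for receptors, kinases, transcription factors and feedback (among them Ifnar1, Ifnar2, Jak1, Tyk2, Irf3, Tbk1, Tmem173, Mb21d1 and Socs1), none was called between treatment labels in the 4 comparisons (limma), and 10, 5, 8 and 14 lay above 0 in the order given before, beside 47.4%, 29.4%, 38.8% and 85.4% of all genes. Their median log2 fold changes were 0.17, -0.11, 0.11 and 0.68, beside -0.03, -0.24, -0.12 and 0.50 over all genes. An unadjusted p under 0.05 was reached by 0, 0, 0 and 1 of them, beside 8.16%, 8.37%, 4.28% and 9.9% of all genes. The 5 that are part of the outside list cannot be read against it. Of the other 9, none was called with the outside genes. Mb21d1, which encodes the cGAMP synthase cGAS, had the highest r at 0.587 (permutation adjusted p = 0.228), and Tmem173, which encodes STING, had 0.431.

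The members were also related to TH1 markers, a relation added after the data had been seen. Among these markers, Ifng is reported by the study as raised by cGAMP in TH1 cells. Subset and treatment thus cannot be told apart in this relation. The mean log2(TPM + 1) of Tbx21, Ifng, Il12rb2, Cxcr3, Stat4 and Il18r1 ran from 0.55 to 6.08 and had r = 0.487 with that of the outside interferon genes. With it, 12 of 38 members were called with r above 0, or 31.6%, while 2.44% of all genes were, and the median r was 0.481 for the members and 0.272 for all genes. Spearman's rho also called 12, and 10 to 17 were called when each library was left out, the share of all genes not being taken for either. Trafd1 and Trim21 lost their call without 1 and 2 of the libraries. Trim21 also lost it under both scalings, and Trafd1 with the 20 most abundant symbols left out. The called members were Ly6c1 (r = 0.881), Casp4 (0.862), Ly6c2 (0.855), Epsti1 (0.833), Ly6a (0.828), Mlkl (0.819), Ifitm3 (0.804), Phf11b (0.790), Phf11a (0.754), Pml (0.745), Trafd1 (0.710) and Trim21 (0.688). Of these, 9 were called with both lists, while Ly6c1, Ly6c2 and Trim21 were called with the TH1 markers only. A further 18 were called with the interferon genes only and 8 with neither. Whether a member's r with one list differed from that with the other was not tested.

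**Figure D4:**
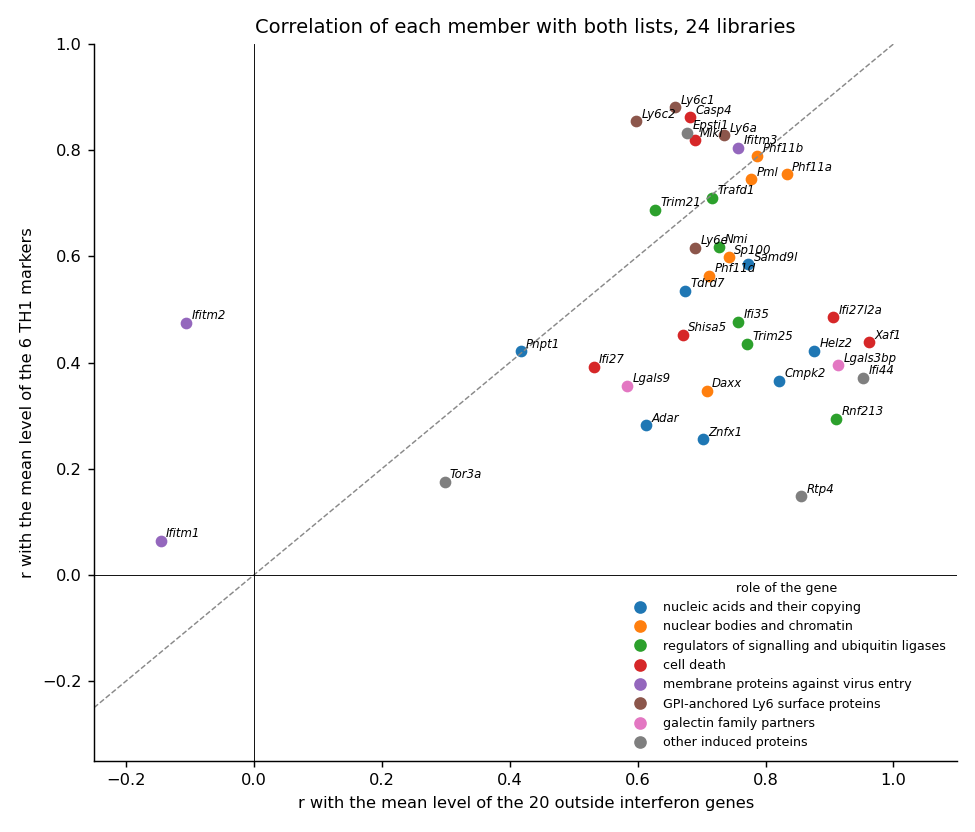
Pearson's r of each of the 38 members over 24 libraries with the mean level of the 20 outside interferon genes (horizontal axis) and of the 6 TH1 markers (vertical axis), coloured by role, with the line of equal r dashed. Below the line lie 26 members, with Rtp4 (0.856 and 0.148) farthest to the lower right, and above it 12, with Ly6c1, Ly6c2, Casp4 and Epsti1 near the top.

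The Ly6 genes, GPI-anchored surface proteins within chromosome 15 from 74955051 to 75111970, had a median r of 0.842 with the TH1 markers, with 3 of 4 called. Ly6c1 spanned 0.365 to 215 TPM (median 9.65) across the 12 control libraries and 0 to 311 TPM (median 37.4) across the 12 cGAMP libraries, and Ly6c2 from 0.0651 to 7.15 TPM against 0 to 27.1 TPM. In TH1 16h cGAMP libraries Ly6c1 held 4.91, 57.3 and 311 TPM, and their mean TH1 marker levels were 1.18, 4.52 and 6.08. Ly6a held 31.6, 328 and 838 TPM in the same libraries. Ly6e, which limits the entry of some viruses, had r = 0.617 (permutation adjusted p = 0.0574) for the TH1 markers and 0.690 (0.0348) for the interferon genes, and a range of only 16.1 to 253 TPM. Between the Ly6 genes r ran from 0.557 (Ly6e with Ly6c2) to 0.898 (Ly6a with Ly6c1). Ly6c1 and Ly6c2 are close copies, and how reads were split between them is uncertain.

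With the TH1 markers held constant, the partial r with the interferon genes was 0.954 for Xaf1, 0.952 for Ifi44, 0.919 for Rnf213, 0.907 for Rtp4 and 0.899 for Lgals3bp. Their partial r with the TH1 markers, the interferon genes held constant, was -0.129, -0.347, -0.413, -0.595 and -0.141. For Ly6c1 the values were 0.555 and 0.852, for Casp4 0.591 and 0.829, and for Ly6c2 0.401 and 0.805. Phf11a and Phf11b had high values for both, 0.812 and 0.722 for Phf11a and 0.75 and 0.754 for Phf11b. Ifitm2 had -0.438 and 0.606. These partial values are descriptions without a test.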

How the data were processed

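The study built its libraries from 500 ng of RNA after removal of rRNA (TruSeq stranded total RNA, single-end reads of 76 bases). The deposited TPM by symbol were made by the authors with Trimmomatic, kallisto and mm10, with versions and strand settings not stated, and DESeq2 served tests not used here. TPM are not counts, so limma 3.58.1 (R 4.3.3, intensity trend) took the place of a count test. It was fitted to log2(TPM + 1) of all 24 libraries, with a mean per label, over 15720 genes with at least 1 TPM in 3 or more libraries, and p-values were adjusted by Benjamini-Hochberg. Correlations used numpy 2.4.6 and 100000 permutations. Both were tested on simulated data. The limma simulation used noise well below that of the real libraries and planted changes larger than most of those seen in the members. It therefore does not show that changes of the members' size would be found here. Members and lists were chosen with earlier results of these data known. Not every gene of the lists is named here. Values are given for the 3 members with the smallest p per comparison, the 8 highest and 6 lowest in r, and paralogues. Libraries with the same replicate number deviated together (r over 0.1) in 2 of 12 pairs and were not taken as paired. This check rests on labels and replicate numbers that are in doubt, so it cannot show whether libraries of 1 experiment go together. Alternatives were pseudocounts of 0.1 and 10, no filter, a mean of at least 2 TPM, 2 scalings, no intensity trend, the compared libraries alone, a replicate block, and leaving out each library. The marker conflict touches every label, which left no undoubted set to repeat a comparison on. Gene positions are from GENCODE M21 (GRCm38).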

Additional observations from a re-analysis of the deposited data

How the results depend on the processing

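No member was called between treatment labels under any alternative run (limma), the replicate block included. With single libraries left out, the median of the members at 16h lay between -0.11 and 0.98 in TH1 and between -0.22 and 0.70 in TH9. At 48h these bounds were -0.51 and 0.58 in TH1 and 0.60 and 1.16 in TH9, and for the mean 0.16 and 0.48. The F test over 8 labels called 8 members, but 4 without a filter on low values, 0 under upper-quartile scaling, 0 with the 20 most abundant symbols left out and 3 with a replicate block. The relation with the outside interferon genes held for 27 members, for 20 with a replicate block, 22 without a filter and 31 under both scalings, and for 12 over deviations from label means, an alternative added after seeing the data. The share of all genes called was taken in the main runs only, so the counts under these alternatives lack a background. The r with the TH1 markers changed sign for 5 members that were not called. Under upper-quartile scaling it was -0.0800 for Adar, -0.0328 for Znfx1, -0.178 for Tor3a, -0.203 for Ifitm1 and -0.000476 for Lgals9, and with the 20 symbols left out -0.0904, -0.0329, -0.219, -0.189 and -0.0855. Spearman's rho of Ifitm1 was -0.0172. Beyond single libraries left out, calls of single members were lost in 42 and gained in 24 of the other alternative values, and 730 stayed as they were. The fold changes between treatment labels taken for single members were 15, that of Ifitm1 at TH9 16h, not given above, among them. Of these, 14 moved by over 1.5 times with a pseudocount of 10, 4 with 0.1, 2 under upper-quartile scaling and 1 with the 20 symbols left out. None changed sign. The causes were not tested. Ifitm1 gave no value where it missed the filter. Read depth is unknown, so the precision of low members such as Ifitm1, Cmpk2 and Ly6c2 cannot be given.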

Other observations

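In the listed order of the libraries, Xaf1, Ifi44, Lgals3bp, Rnf213, Ifi27l2a, Helz2, Rtp4, Phf11a, Cmpk2, Tdrd7, Casp4, Ifitm3 and Ly6c1 were each higher in the second library of all 12 successive pairs, while Ifitm1 was so in 4, Ifitm2 in 3 and Pnpt1 in 5. That is 13 of 38 members, beside 73 of 15720 genes tested, or 0.464%. Of the 12 pairs, 8 join libraries with the same deposited label and the other 4 join control with cGAMP, so the pattern crosses the deposited treatment labels. Whether it follows the treatment that the cells received was not tested. No condition was taken from this order, and the values are given without a test.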
